A study of Mus musculus with 24 samples.

Results

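10 genes of transcription factors that T cells switch on when their receptor is engaged were followed across mouse CD4 T cells in which either of 2 enzymes of acetyl-CoA supply was to be deleted. They are the interferon regulatory factors Irf4 and Irf8, the basic leucine zipper factors Batf, Batf3 and Junb, the zinc finger factors Egr1 and Egr2, the orphan nuclear receptors Nr4a1 and Nr4a3, and Myc. The members were chosen by name, with earlier results of these data known. All 10 were found by their Ensembl identifiers among the 46981 genes of the deposited table. The study holds 24 libraries in 2 cohorts, each with 4 groups of 3 libraries. In the Acly cohort the knockout (KO) cells came from mice labelled CD4-Cre Aclyfl/fl, in which Cre driven by the Cd4 promoter acts on a floxed gene of ATP citrate lyase, the enzyme that makes acetyl-CoA from citrate. In the Pdha1 cohort they came from mice labelled Pdha1fl/fl CD4CreERT2, in which a Cre that needs tamoxifen acts on a floxed gene of the E1 alpha subunit of pyruvate dehydrogenase. Each cohort has controls labelled wild type (WT), and the labels do not say whether these carried Cre, floxed alleles or tamoxifen. Cells were left untreated, called resting here, or activated through CD3 and CD28 for 24 h in medium with 15% serum. The sources used here give no age or sex of the mice, no tamoxifen schedule and no word on pooling.

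When antigen receptor and CD28 are engaged, calcium, MAP kinase and NF-kB signalling reach genes whose promoters are held ready, and a first wave of transcription factors appears. EGR and NR4A factors belong to the earliest of these, and their levels are widely used as a measure of receptor signalling. IRF4 and BATF bind DNA together with JUN family partners and direct effector programmes, and MYC drives the growth and metabolic remodelling that precede division. Because 24 h is late for genes that peak within the first hours, the values below describe levels at that time and not the height of the early wave.

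Upstream sequence of the members was read first, because 5 of the 8 members with a RefSeq promoter window (GRCm38.p6) share a short motif, the CRE core TGACG, which lies in the element bound by CREB and ATF factors. These are Nr4a1, Nr4a3, Egr2, Junb and Batf. Egr1 and Myc have no window in that table. The 250 bases before the start are shown 5′ to 3′ on the gene's strand, with CRE cores in capitals on either strand, so that TGACG also appears as CGTCA. NFAT cores and the other motifs searched are not marked, except that in Egr2 the capitals also show a CArG box, the site of serum response factor, and an IRF element (GAAANNG, seen as CACTTTC).
Nr4a1: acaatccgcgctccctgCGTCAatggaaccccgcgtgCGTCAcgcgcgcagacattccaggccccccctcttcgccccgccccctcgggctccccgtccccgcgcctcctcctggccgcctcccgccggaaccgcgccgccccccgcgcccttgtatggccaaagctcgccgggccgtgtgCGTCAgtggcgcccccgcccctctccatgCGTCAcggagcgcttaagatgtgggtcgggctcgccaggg
Nr4a3: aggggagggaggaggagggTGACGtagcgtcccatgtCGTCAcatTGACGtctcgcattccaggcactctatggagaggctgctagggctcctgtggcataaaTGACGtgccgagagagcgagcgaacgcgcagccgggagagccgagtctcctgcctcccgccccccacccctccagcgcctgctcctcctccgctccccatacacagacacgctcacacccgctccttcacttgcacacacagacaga
Egr2: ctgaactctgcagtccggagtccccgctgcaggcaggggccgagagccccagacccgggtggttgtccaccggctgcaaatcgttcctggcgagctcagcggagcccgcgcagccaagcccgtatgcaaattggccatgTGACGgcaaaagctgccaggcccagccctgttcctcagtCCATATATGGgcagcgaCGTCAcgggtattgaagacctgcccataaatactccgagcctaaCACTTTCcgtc
Junb: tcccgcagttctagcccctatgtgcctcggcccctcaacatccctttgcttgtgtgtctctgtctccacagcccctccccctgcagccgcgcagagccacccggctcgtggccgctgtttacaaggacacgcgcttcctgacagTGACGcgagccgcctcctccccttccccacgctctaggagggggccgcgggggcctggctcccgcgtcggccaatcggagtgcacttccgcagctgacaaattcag
Batf: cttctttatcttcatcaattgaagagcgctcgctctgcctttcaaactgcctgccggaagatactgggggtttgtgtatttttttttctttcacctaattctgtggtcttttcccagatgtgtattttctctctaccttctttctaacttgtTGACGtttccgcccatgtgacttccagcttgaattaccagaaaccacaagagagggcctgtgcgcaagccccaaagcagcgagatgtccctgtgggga
The stretches lie at chr15:101266596-101266845 (plus strand) for Nr4a1, chr4:48045055-48045304 (plus) for Nr4a3, chr10:67537619-67537868 (plus) for Egr2, chr8:84978749-84978998 (minus) for Junb and chr12:85686470-85686719 (plus) for Batf. Nr4a1 and Nr4a3 each hold 4 CRE cores, Egr2 holds 2 in the window shown, and Junb and Batf hold 1 each. Other windows of Egr2, those that begin at chr10:67535249 and chr10:67537316, hold no CRE core. Counting the first base of the transcript as 0, those of Nr4a1 begin at -233, -213, -69 and -40, and those of Nr4a3 at -231, -213, -205 and -147.

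Of all 32851 windows of 300 bases (250 before and 50 after the start), 20.8% hold a CRE core, against 7 of the 13 windows of these 8 members. Egr2 has 5 windows, 3 of which overlap, and Irf8 has 2, so a gene with several starts has more chances of a match. The CArG box occurs in 1.6% of all windows and, among the members, in Egr2. The IRF element is found in Irf4, Irf8 and Egr2 and in 52.7% of all windows, and the NFAT core GGAAA in 5 members and in 61.3%. An E-box (CACGTG), the site of MYC and MAX, lies in a window of Batf3 and of Egr2 and in 7.2% of all windows, and in Egr2 it overlaps an EGR core (GTGGGCG), which 8.0% of windows hold. No member window holds the letters of the AP-1 site TGANTCA, which 7.8% of all windows do. All 7 motifs were searched on both strands. A match is a description of letters, and the table gives 1 value per gene, without regard to the start used.

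Values are in RPM, reads scaled to 1000000 per library, as deposited. They follow whole counts of 388902 to 1087675 per library, so that 1 count is worth 0.677 to 2.28 RPM and a count of 0 allows up to 3 counts, or 2.03 to 6.83 RPM; such limits cover counting error only. RPM are not scaled to gene length, so levels are compared between libraries and, apart from the background below, not between genes. As a measure of background, 1450 genes of olfactory and vomeronasal receptors, families known from sensory neurons, summed to 95039 to 109181 RPM in 11 resting libraries. In activated cells of the Acly cohort they summed to 30009 to 40831 RPM. In resting libraries of the Acly cohort 0 to 2 of the 10 members exceeded the median receptor gene, which stood at 5.32 to 7.45 RPM, so most resting values lie at the background. In activated libraries of that cohort 9 or 10 members exceeded it. The 95th percentile of the receptor genes, 42.1 to 64.4 RPM there, was exceeded by 3 to 5 members. That percentile was higher in activated Pdha1 KO libraries, at 125 to 170 RPM, and 0 members exceeded it there. Such counts set genes of different length side by side and are a rough guide. The 10 T cell markers were all above 0 in every library. Their sum was 540 to 1130 RPM in resting and 2700 to 3620 RPM in activated cells of the Acly cohort, and the sum of 8 B cell markers was 57.9 to 118 RPM in resting and 22.9 to 52.4 RPM in activated cells. Markers of red cells and platelets, 5 genes, summed to 14.1 to 688 RPM in that cohort and to 407 to 19100 RPM in the Pdha1 cohort.

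Targeted genes were read as a check of the labels. Acly measured 104, 111 and 109 RPM (WT) and 11.3, 10.6 and 15.0 RPM (KO) in the activated groups of its cohort, while resting libraries of both genotypes held at most 9.87 RPM. Pdha1 measured 84.7, 40.8 and 5.35 RPM (WT) and 30.4, 27.4 and 20.0 RPM (KO) in the activated groups of its cohort, which overlap. In that cohort 2 libraries went against the state on their labels. The library labelled KO resting 3 had 66035 RPM in receptor genes and 9 members above the receptor median, and the library labelled WT activated 3 had 105016 RPM and 2 members above it. Both are kept in the fits of all libraries, and each test of the Pdha1 cohort and the order of the levels are also given without them. Because the members' own levels are part of what sets these libraries apart, calls made without them rest on that choice.

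**Figure D1:**
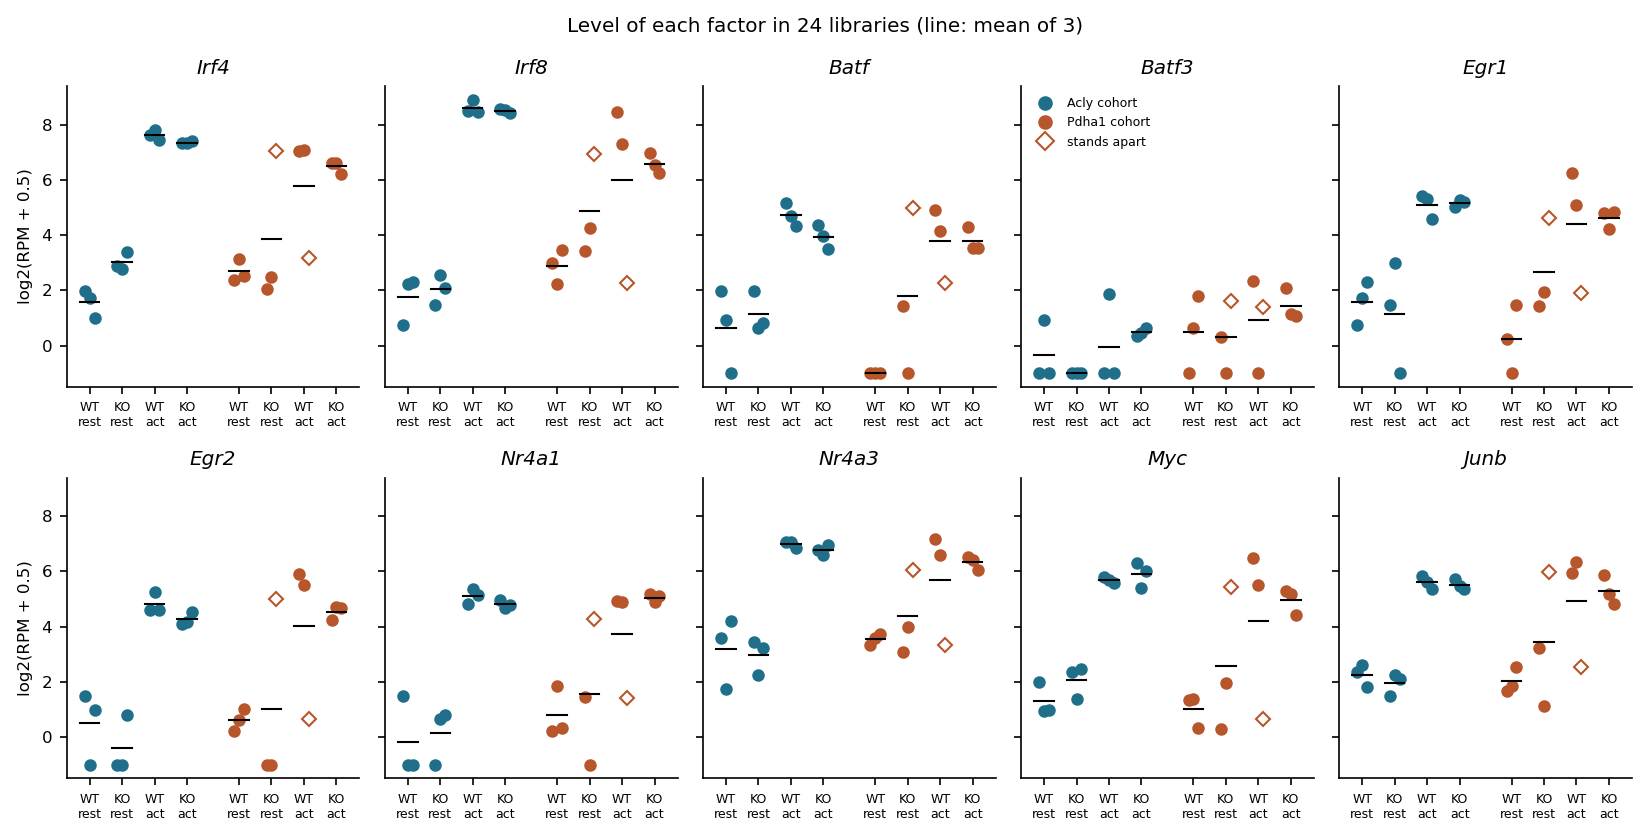
Level of each of the 10 factors on the log2(RPM + 0.5) scale (vertical axis) in the 8 groups (horizontal axis), with 1 point per library, a line at the mean of 3 libraries, and open diamonds for Pdha1 KO resting 3 and Pdha1 WT activated 3. In the Acly cohort all activated libraries lie above all resting ones for each factor but Batf3. Within a genotype, activated libraries lay above resting ones in 23.1% (WT) and 22.6% (KO) of all genes tested.

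The first comparison asked whether each factor was more abundant 24 h after CD3 and CD28 engagement than at rest. In WT cells of the Acly cohort 9 of the 10 members rose (limma, adjusted over all genes), against 21.4% of the 31311 genes tested that were called higher, and the members' median log2 change was 4.20 where that of all genes was -0.61. In KO cells the same 9 rose, against 20.7% of genes called higher, with medians of 3.93 and -0.67. Batf3 passed in neither. The members were chosen as factors induced by activation, with earlier results of these data known. Their counts beside the shares of all genes are thus a description and not a test of that choice. All genes together were called higher 6700 times and lower 7447 times in WT, and 7741 and 4929 times under a scaling in the manner of TMM, which moved the median of all genes by 0.32 in WT and by 0.36 in KO. The same 9 members were called higher under that scaling. Fewer cells of a type and less RNA per cell cannot be told apart in such bulk samples.

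Irf4 (chromosome 13, 30749226 to 30766976, plus strand, GRCm38; ENSMUSG00000021356) encodes a factor that rises with the strength of receptor signalling. In the Acly cohort it measured 3.48, 2.82 and 1.49 RPM in the resting WT group (libraries 1 to 3) and 6.86, 6.39 and 10.1 RPM in the resting KO group, then 199, 225 and 173 RPM (WT) and 162, 160 and 168 RPM (KO) after activation. The activated libraries all lay far above the resting ones. Resting KO libraries lay above resting WT ones, and activated KO libraries below activated WT ones. The rise was 6.06 ± 0.32 (log2, SE) in WT and 4.33 ± 0.32 in KO cells, with adjusted p-values by limma of 5.33e-19 and 1.19e-14. In counts, 663 activated reads stood against 6 resting ones in WT, a ratio per depth of 72.8 (95% counting interval 33.3 to 199), and 541 against 20 in KO, a ratio of 20.8 (13.3 to 34.3).

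Irf8 (chromosome 8, 120736358 to 120756694, plus strand; ENSMUSG00000041515) is known above all from myeloid and B cell development, and is also induced in T cells. It measured 1.16, 4.23 and 4.47 RPM in the resting WT group and 2.28, 5.32 and 3.78 RPM in the resting KO group, then 360, 480 and 353 RPM (WT) and 379, 373 and 343 RPM (KO) after activation. Genotypes overlapped in both states, and activated and resting libraries did not. The rise was 6.86 ± 0.34 in WT and 6.47 ± 0.34 in KO cells on the log2 scale, the largest of the 10 members in each. In WT 1293 activated counts stood against 7 resting ones, a ratio of 122 (58.9 to 303). The sum of 10 myeloid and dendritic cell markers was 93.1 to 149 RPM in resting and 25.6 to 52.4 RPM in activated libraries of this cohort. Of these markers 2 to 5 were at 0 in each resting library and 2 to 4 in each activated one. Receptor genes were lower in the same activated libraries, and the part of these markers in the level of Irf8 was not tested.

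Batf (chromosome 12, 85686669 to 85709087, plus strand; ENSMUSG00000034266) encodes the partner with which IRF4 and IRF8 bind composite DNA elements. It measured 3.48, 1.41 and 0 RPM in the resting WT group and 3.43, 1.06 and 1.26 RPM in the resting KO group, then 35.0, 25.3 and 19.4 RPM (WT) and 20.4, 15.0 and 10.7 RPM (KO) after activation. Activated KO libraries overlapped with WT ones at the upper end. The rise was 4.08 ± 0.61 in WT and 2.80 ± 0.61 in KO cells. Its relative Batf3 (chromosome 1, 191097847 to 191108945, plus strand; ENSMUSG00000026630), which acts in T helper and dendritic cells, held at most 4.56 RPM in any of the 24 libraries, the value of 2 counts in that library. No library held more than 5 counts of it. Batf3 was thus at or under the limit that a count of 0 allows in most libraries, and a change of it was not detectable at this depth. Its fitted change was 0.31 ± 0.79 in WT and 1.48 ± 0.79 in KO cells, with limma adjusted p-values of 0.766 and 0.12.

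Junb (chromosome 8, 84974484 to 84978718, minus strand; ENSMUSG00000052837) encodes the JUN family partner of BATF in helper T cells. It measured 4.64, 5.64 and 2.98 RPM in the resting WT group and 2.28, 4.26 and 3.78 RPM in the resting KO group, then 56.2, 48.5 and 40.7 RPM (WT) and 51.8, 44.3 and 40.8 RPM (KO) after activation. Its states did not overlap, and its genotypes overlapped in both. The rise was 3.34 ± 0.39 in WT and 3.58 ± 0.39 in KO cells.

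Egr1 (chromosome 18, 34859823 to 34864984, plus strand; ENSMUSG00000038418) and Egr2 (chromosome 10, 67535475 to 67542188, plus strand; ENSMUSG00000037868) encode zinc finger factors downstream of MAP kinase and NFAT signalling, and EGR2 is also tied to restraint of the response. Egr1 measured 1.16, 2.82 and 4.47 RPM in the resting WT group and 2.28, 7.45 and 0 RPM in the resting KO group, then 42.1, 38.9 and 23.8 RPM (WT) and 31.9, 38.1 and 36.5 RPM (KO) after activation. Egr2 measured 2.32, 0 and 1.49 RPM in the resting WT group and 0, 0 and 1.26 RPM in the resting KO group, then 24.0, 37.3 and 23.8 RPM (WT) and 16.7, 17.7 and 22.5 RPM (KO) after activation. For Egr2 every activated KO library lay below every activated WT library, and for Egr1 the genotypes overlapped. Egr1 rose by 3.51 ± 0.69 in WT and 4.01 ± 0.69 in KO cells, and Egr2 by 4.32 ± 0.64 and 4.66 ± 0.64.

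Nr4a1 (chromosome 15, 101254269 to 101274795, plus strand; ENSMUSG00000023034) encodes NUR77, a common reporter of receptor signalling, and Nr4a3 (chromosome 4, 48045153 to 48086447, plus strand; ENSMUSG00000028341) its relative NOR1. Nr4a1 measured 2.32, 0 and 0 RPM in the resting WT group and 0, 1.06 and 1.26 RPM in the resting KO group, then 28.0, 40.5 and 34.5 RPM (WT) and 31.1, 24.8 and 26.8 RPM (KO) after activation. Nr4a3 measured 11.6, 2.82 and 17.9 RPM in the resting WT group and 10.3, 4.26 and 8.83 RPM in the resting KO group, then 134, 132 and 114 RPM (WT) and 108, 96.4 and 125 RPM (KO) after activation. Both were high in every activated library, and their genotypes overlapped. Nr4a3 was already counted at rest, 24 times in WT and 20 times in KO cells. Nr4a1 rose by 5.27 ± 0.62 in WT and 4.65 ± 0.62 in KO cells, and Nr4a3 by 3.81 ± 0.44 in both. These are the genes with 4 CRE cores each in the sequences above.

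Myc (chromosome 15, 61985391 to 61990374, plus strand; ENSMUSG00000022346) measured 3.48, 1.41 and 1.49 RPM in the resting WT group and 4.57, 2.13 and 5.04 RPM in the resting KO group, then 55.2, 50.9 and 46.9 RPM (WT) and 79.5, 41.7 and 64.6 RPM (KO) after activation. Activated KO libraries lay on both sides of the WT ones. The rise was 4.38 ± 0.42 in WT and 3.85 ± 0.42 in KO cells.

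**Figure D2:**
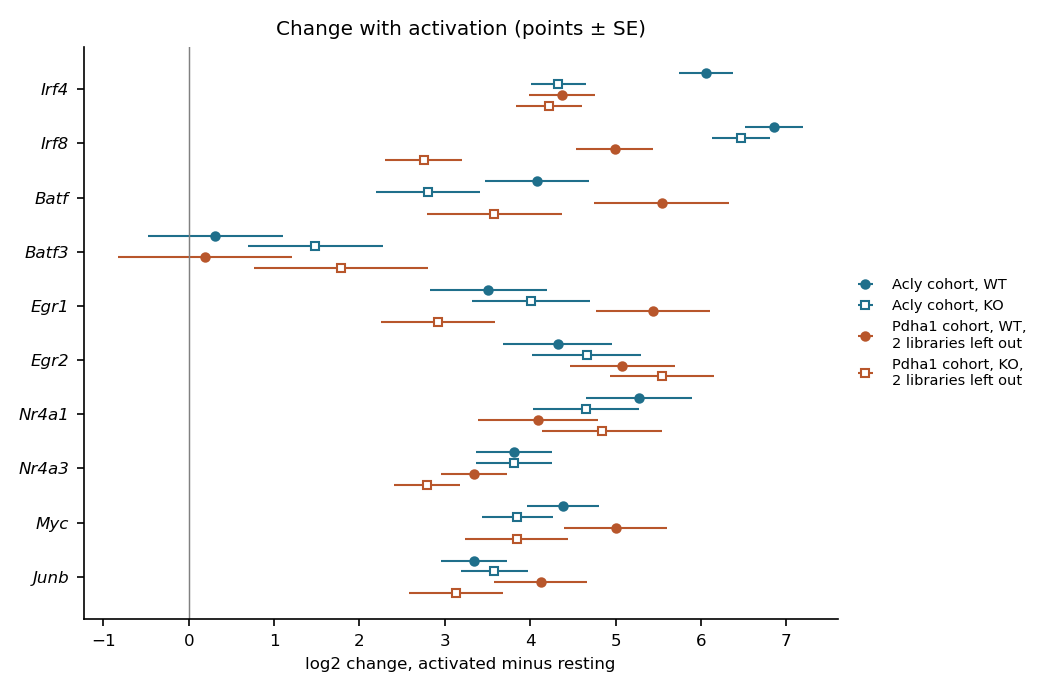
Change with activation on the log2 scale (horizontal axis, activated minus resting, points with SE) for each factor in WT and KO cells of both cohorts, the Pdha1 cohort without its 2 libraries that stand apart. All factors but Batf3 lie between 2.75 and 6.86 in the 4 comparisons.

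In the Pdha1 cohort with all 12 libraries, 0 of 10 members were called between activated and resting cells by limma, either in WT, where 0% of 30357 genes were called, or in KO, where 0% were called. At an unadjusted p under 0.05 there were 4315 genes and 5 members in WT, and 873 genes and 1 member in KO. DESeq2 on the recovered counts called 9 members higher in WT, against 12.6% of the 15051 genes to which it gave an adjusted p. On the same counts and libraries edgeR called 0 members in WT, with adjusted p-values from 0.31 (Irf8) to 0.898 (Batf3). Leaving out WT activated 3 and KO resting 3 changed the calls of limma: 9 members were called higher in WT, against 14.9% of 29032 genes, and 9 in KO, against 7% of genes. Batf3 again was not. The members' median log2 change was then 4.68 in WT and 3.35 in KO cells, where the median of all genes was -0.57 and -0.20. With Batf (WT) and Egr2 (KO), which had no resting count, put at the lower bounds given for them in the values that follow, those medians were 4.24 and 3.02. Leaving out WT activated 3 by itself gave 7 members called higher in WT, against 9.48% of genes. Leaving out KO resting 3 by itself gave 0 members called in KO. Each value below is given with both libraries first.

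Irf4 measured 4.74, 8.37 and 5.26 RPM in the resting WT group (libraries 1 to 3) of the Pdha1 cohort and 3.66, 5.06 and 132 RPM in the resting KO group, then 131, 135 and 8.57 RPM (WT) and 98.2, 97.8 and 74.2 RPM (KO) after activation. KO resting 3 thus lay among the activated libraries and WT activated 3 near the resting ones. With all libraries the change was 3.08 ± 1.37 in WT and 2.63 ± 1.37 in KO cells, and without the 2 libraries 4.37 ± 0.39 and 4.22 ± 0.39. In each of the other members but Batf3, KO resting 3 lay above both other resting KO libraries and WT activated 3 below both other activated WT libraries. For Nr4a1 and Nr4a3, however, KO resting 3 lay below every activated KO library. For Nr4a3 it did so only barely, at 65.9 RPM against 66.1 RPM in KO activated 3.

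Irf8 measured 7.46, 4.18 and 10.5 RPM in the resting WT group and 10.3, 18.6 and 121 RPM in the resting KO group, then 350, 159 and 4.28 RPM (WT) and 124, 92.6 and 76.6 RPM (KO) after activation. Its activated levels spread widely within WT, and the libraries low in Irf8 were those high in receptor genes. Receptor genes summed to 26265, 71983 and 105016 RPM in activated WT and to 75144, 82095 and 88998 RPM in activated KO libraries 1 to 3. The T cell marker sum was 2670, 1800 and 402 RPM in WT and 1320, 1220 and 889 RPM in KO, in the same order. The part of either in the level of Irf8 was not tested. The change with activation was 3.11 ± 1.47 in WT and 1.72 ± 1.47 in KO cells with all libraries, and 4.99 ± 0.45 and 2.75 ± 0.45 without the 2.

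**Figure D3:**
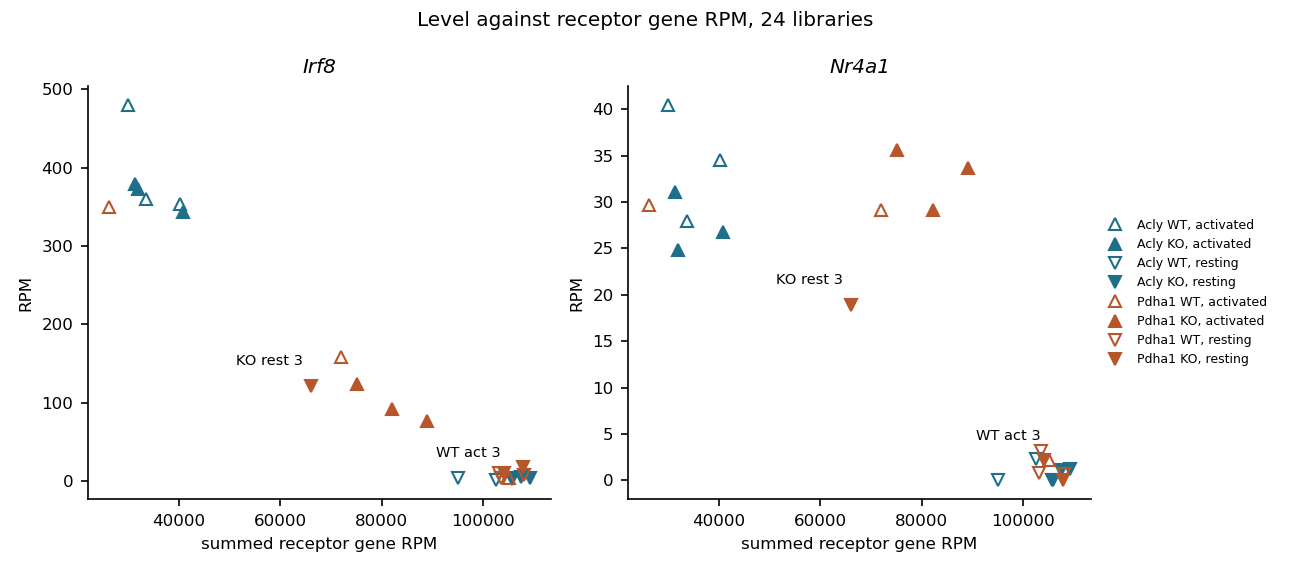
RPM of Irf8 and of Nr4a1 (vertical axes) against the summed RPM of 1450 receptor genes (horizontal axes) in 24 libraries, with triangles pointing up for activated and down for resting cells, filled for KO, colours for the cohorts. Irf8 is lower in activated Pdha1 libraries with more receptor RPM, and Nr4a1 lies between 24.8 and 40.5 RPM in activated libraries other than WT activated 3.

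Batf was at 0 RPM in all 3 resting WT libraries of this cohort, and measured 2.20, 0 and 31.1 RPM in the resting KO group, then 29.7, 17.4 and 4.28 RPM (WT) and 19.2, 11.1 and 11.2 RPM (KO) after activation. Set against 3 counts per resting library, its mean in activated WT cells was at least 6.92-fold higher with all libraries and at least 9.52-fold higher without WT activated 3. Junb measured 2.71, 3.14 and 5.26 RPM in the resting WT group and 8.80, 1.69 and 63.3 RPM in the resting KO group, then 61.7, 80.0 and 5.35 RPM (WT) and 58.1, 36.0 and 28.0 RPM (KO) after activation. Junb had fitted changes of 2.92 ± 1.22 in WT and 1.85 ± 1.22 in KO cells with all libraries, neither called, and rose by 4.12 ± 0.55 and 3.13 ± 0.55 without the 2. Batf3 stood between 0 and 4.56 RPM throughout.

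Egr1 measured 0.677, 0 and 2.25 RPM in the resting WT group and 2.20, 3.38 and 24.1 RPM in the resting KO group, then 75.5, 33.9 and 3.21 RPM (WT) and 27.4, 18.0 and 28.0 RPM (KO) after activation. Egr2 measured 0.677, 1.04 and 1.5 RPM in the resting WT group and 0, 0 and 31.9 RPM in the resting KO group, then 59.4, 44.7 and 1.07 RPM (WT) and 18.5, 25.7 and 24.8 RPM (KO) after activation. Without the 2 libraries, activated KO cells lay below activated WT cells in both genes. Egr1 then rose by 5.44 ± 0.67 in WT and 2.92 ± 0.67 in KO cells, and Egr2 by 5.08 ± 0.61 and 5.54 ± 0.61. Both resting KO libraries left had no count of Egr2, so the last value depends on the pseudocount. Against 3 counts per such library, Egr2 was at least 6.34-fold higher in activated KO cells. With all libraries neither was called: Egr1 had 4.18 ± 1.07 and 1.95 ± 1.07, and Egr2 had 3.40 ± 1.70 and 3.53 ± 1.70.

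Nr4a1 measured 0.677, 3.14 and 0.75 RPM in the resting WT group and 2.20, 0 and 18.9 RPM in the resting KO group, then 29.7, 29.1 and 2.14 RPM (WT) and 35.6, 29.2 and 33.7 RPM (KO) after activation. Nr4a3 measured 9.50, 11.5 and 12.8 RPM in the resting WT group and 8.06, 15.2 and 65.9 RPM in the resting KO group, then 145, 95.8 and 9.64 RPM (WT) and 90.6, 84.7 and 66.1 RPM (KO) after activation. Activated KO libraries overlapped with WT activated 1 and 2 in Nr4a1, and all lay below both in Nr4a3. Nr4a1 had changes of 2.93 ± 1.21 in WT and 3.48 ± 1.21 in KO cells with all libraries and rose by 4.09 ± 0.70 and 4.84 ± 0.70 without the 2. Those of Nr4a3 were 2.16 ± 0.94 and 1.95 ± 0.94, then 3.34 ± 0.39 and 2.79 ± 0.39.

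Myc measured 2.03, 2.09 and 0.75 RPM in the resting WT group and 0.732, 3.38 and 43.2 RPM in the resting KO group, then 89.2, 45.6 and 1.07 RPM (WT) and 38.6, 36.0 and 20.8 RPM (KO) after activation. WT activated 1, the library with the lowest receptor RPM, held the most Myc in this cohort. The change was 3.21 ± 1.57 in WT and 2.40 ± 1.57 in KO cells with all libraries, neither called, and 5.00 ± 0.60 and 3.84 ± 0.60 without the 2.

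Cells labelled Acly KO were compared with WT next. In activated cells of the Acly cohort 0 of 10 members differed between genotypes by limma, and 0 did at an unadjusted p under 0.05, where 0.00639% of genes were called, 2 in all, and 1087 had an unadjusted p under 0.05. edgeR and DESeq2 on the recovered counts also called 0 members. The differences, KO minus WT, were -0.28 ± 0.32 for Irf4 (95% interval -0.92 to 0.37), -0.11 ± 0.34 for Irf8 (-0.80 to 0.58) and 0.23 ± 0.42 for Myc (-0.61 to 1.07). Those of Batf and Egr2 reached lower, with -0.78 ± 0.61 (-2.00 to 0.45) and -0.55 ± 0.64 (-1.85 to 0.74). A difference of -1 thus lies outside the interval for Irf4, Irf8, Myc and Junb (-0.87 to 0.71), and inside that of the other 6. Irf4 and Egr2 had every KO library below every WT library, which 7.38% of genes had. In the same libraries Acly itself was lower in KO cells.

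At rest the genotypes of the Acly cohort differed in 0 of 10 members, where 0% of genes were called and 1745 had an unadjusted p under 0.05. Irf4 came nearest, with 1.45 ± 0.32 (95% interval 0.81 to 2.10), an unadjusted p of 4.76e-05 and an adjusted p of 0.169 by limma. All 3 resting KO libraries lay above all 3 resting WT ones, which held for 3.33% of genes. The difference rests on few counts, 20 in KO and 6 in WT, and the WT values of 3, 2 and 1 counts are at or under the limit that a count of 0 allows. Leaving out WT resting 1, where 16 genes were called in all, gave 1.66 with an adjusted p of 0.0464, the lowest over 22 settings, whose highest was 1. The interaction of genotype and activation called 0 members, where 0% of genes were called, and 1313 genes had an unadjusted p under 0.05. Irf4 had -1.73 ± 0.45 (-2.64 to -0.82, unadjusted p 0.000433, adjusted p 1), which carries the same resting values.

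**Figure D4:**
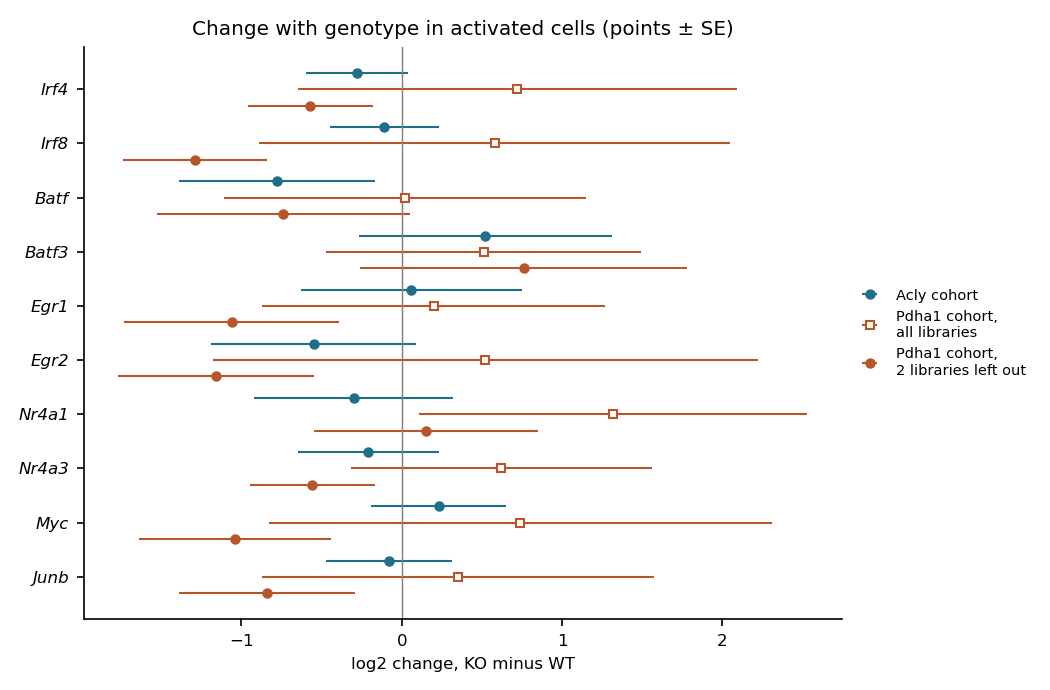
Change with genotype in activated cells on the log2 scale (horizontal axis, KO minus WT, points with SE) for each factor in the Acly cohort and in the Pdha1 cohort with all libraries and with 2 left out. In the Acly cohort the points lie between -0.78 and 0.52, and leaving out the 2 libraries turns the sign of 8 of 10 points of the Pdha1 cohort.

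Cells labelled Pdha1 KO were compared with WT in the same way, although with all libraries the Pdha1 gene itself overlapped between these groups in both states. Resting libraries held 6.78, 3.14 and 6.01 RPM of it (WT) and 7.33, 0 and 25.9 RPM (KO). Without the 2 libraries Pdha1 still overlapped at rest. After activation every KO library then lay below both WT libraries in Pdha1, as in 14.5% of genes. In activated cells 0 of 10 members differed with all libraries by limma, where 0% of genes were called and 856 had an unadjusted p under 0.05. Without the 2 libraries 0 were called again, against 0.00689% of 29032 genes, 2 in all, and an unadjusted p under 0.05 was found for 5110 genes and 1 member. In 7 members, Irf4, Irf8, Egr1, Egr2, Nr4a3, Myc and Junb, all 3 KO libraries then lay below both WT libraries, as in 14.5% of genes. Irf8 had -1.29 ± 0.45 (95% interval -2.23 to -0.36) with an adjusted p of 0.232 by limma, and 0.58 ± 1.47 with all libraries. edgeR without the 2 libraries called Irf8 lower, with -1.37 and an adjusted p of 0.0273, and 542 genes in all. Over the 24 settings the adjusted p of Irf8 ran from 0.0273 to 1. Egr2 had -1.16 ± 0.61 (-2.43 to 0.11) and Myc -1.04 ± 0.60 (-2.29 to 0.21), neither called. Nr4a1 stood apart from these, with 0.15 ± 0.70 (-1.32 to 1.62), an interval that spans changes of more than 1 in both directions. The sums of receptor genes and T cell markers given above for Irf8 also separate these WT libraries from the KO ones. The order within a genotype is not shared by all of these members. The part of the sums in these differences was not tested.

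At rest 0 members differed between these labels with all libraries, where 0% of genes were called, and 0 without the 2, where 0.00344% were called, which is 1 gene. At an unadjusted p under 0.05 there were 636 genes and 2 members, and without the 2 libraries 930 genes and 3 members. Egr2 was at 0 RPM in both remaining KO libraries and at 1 or 2 counts in each WT library, so its -1.62 ± 0.61 without the 2 lies under the limit of detection. The same pattern, KO below WT in every library, held for 5.92% of genes. The interaction called 0 members with all libraries, where 0% of genes were called, and 0 without the 2, where 0.00689% were called, and 701 and 2387 genes had an unadjusted p under 0.05. Irf8 had the lowest p of the members without the 2, with -2.24 ± 0.63 (-3.56 to -0.92, limma unadjusted p 0.00215, adjusted p 0.605).

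Both cohorts were then set in 1 fit of all 24 libraries, which compares the changes with activation and with genotype between them. The cohort stands for different mice and, at least in KO cells, a different Cre, which cannot be told apart here. The cohorts also differed in markers of red cells and platelets, as given above. Receptor genes in activated WT libraries summed to 30009 to 40163 RPM in the Acly cohort and 26265 to 105016 RPM in the Pdha1 cohort. The part of these in the comparison was not tested. The rise in WT cells differed between cohorts in 0 members, where 0.0453% of 35290 genes were called, and in 0 without the 2 libraries, where 0.11% were. Without them it was larger in the Acly cohort by 1.69 ± 0.51 for Irf4 and 1.87 ± 0.58 for Irf8, with limma adjusted p-values of 0.269 and 0.289, and Egr1 had -1.93 ± 0.99 on that scale. The genotype effect in activated cells differed in 0 members, where 0% of genes were called, and again in 0 without the 2, where 0% were called.

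Ordered by mean level, activated WT cells of the Acly cohort came first for Irf4 (199 ± 26.2 RPM, SD, n = 3), Irf8 (398 ± 71.1), Batf (26.6 ± 7.88), Nr4a1 (34.3 ± 6.24) and Nr4a3 (127 ± 10.7). Activated KO cells of that cohort led for Myc (61.9 ± 19.1), activated WT cells of the Pdha1 cohort for Egr1 (37.5 ± 36.3), Egr2 (35.0 ± 30.3) and Junb (49.0 ± 38.9), and activated Pdha1 KO cells for Batf3 (2.33 ± 1.18). For the 9 members other than Batf3 the 4 activated groups took the first 4 places. Most neighbours in these orders overlapped. Without the 2 libraries activated Pdha1 WT, then 2 libraries, also came first for Myc (67.4 ± 30.8), at 54.7 ± 29.4 RPM for Egr1, 52.0 ± 10.4 for Egr2 and 70.8 ± 12.9 for Junb, and the other leaders stayed. Activated Pdha1 WT then lay apart from the next group for Egr2 and Junb. For Irf4, activated Acly KO (163 ± 3.89) overlapped neither with activated Acly WT nor with activated Pdha1 WT (91.3 ± 71.6), and resting Pdha1 WT (6.12 ± 1.96) not with resting Acly WT (2.60 ± 1.01). Without the 2 libraries activated Pdha1 WT stood at 133 ± 2.68 RPM of Irf4, and the 4 activated groups were all apart. For Nr4a3, activated Pdha1 KO (80.5 ± 12.8) and resting Pdha1 KO (29.7 ± 31.5) did not overlap, the latter being 11.6 ± 5.05 without KO resting 3. With that library the nearest values were 66.1 and 65.9 RPM, hardly a gap. With all libraries, 3.47% of genes had every activated Pdha1 KO library above every resting one. Activated and resting groups overlapped in no member but Batf3 once the 2 were left out. Within a genotype, every activated library then lay above every resting one in 22.8% of genes (Pdha1 WT) and 20.3% (Pdha1 KO). In the Acly cohort the shares were 23.1% (WT) and 22.6% (KO). Shares of genes for the gaps between cohorts were not counted.

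Across the 24 libraries, the 2 that stand apart included, the 9 members other than Batf3 varied together, with Pearson's r of log2(RPM + 0.5) of 0.80 to 0.96 between pairs. The libraries share their state and cohort, so any gene that follows activation is correlated with any other. Within the 11 activated libraries left without WT activated 3, r was 0.92 for Irf4 and Irf8, 0.86 for Nr4a3 with Irf8 and with Myc, and -0.09 for Nr4a1 with Irf8. Among 8708 genes with a symbol and a mean of at least 10 RPM, the nearest to each member were Rrp9 for Irf4 (0.981), Ppa1 for Irf8 (0.981), Lcp2 for Batf (0.951), Ufm1 for Egr1 (0.951) and Sla for Egr2 (0.956). For the rest they were Dusp5 for Nr4a1 (0.956), Eprs for Nr4a3 (0.973), Hax1 for Myc (0.971), Gfi1 for Junb (0.981) and, lowest, Sqstm1 for Batf3 (0.661). Next in line came Eif2s2 (0.977), Psmd14 (0.977), Mocs3 (0.944), Rps12-ps10 (0.949), Slc7a1 (0.955), Shmt2 (0.955), Pfkp (0.962), Cycs (0.968), Nars (0.977) and Ncf1 (0.635), in the same order.

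Relatives and targets of the members were read from fixed lists, counted over all genes tested in WT cells of the Acly cohort, where the median of all genes was -0.61, 21.4% of genes were called higher and 23.8% lower. Of 11 relatives of AP-1 and BATF 5 rose and none fell (median 1.76), among them Atf3, a stress-induced partner of JUN (5.27 ± 0.60), and Jund (4.47 ± 0.26). Of 7 other interferon regulatory factors 4 rose and none fell (median 0.81), with Irf1 at 3.31 ± 0.32 and Irf5 at 2.29 ± 0.78. Of 4 tested relatives of EGR and NR4A 1 rose, Egr3 (2.52 ± 0.50), and none fell. Of 13 NFAT and NF-kB genes 9 rose and 2 fell (median 2.52). Nfkbid, a nuclear inhibitor of NF-kB (5.66 ± 0.37), and Nfkb2 (5.11 ± 0.29) rose, and Nfat5 (-0.99 ± 0.29) and Nfatc3 (-0.77 ± 0.30) fell. Signal-induced feedback genes rose in 12 of 17 cases and fell in 1 (median 2.63), with the MAP kinase phosphatases Dusp2 (4.44 ± 0.28) and Dusp5 (4.38 ± 0.38) up and Btg2, an inhibitor of proliferation (-0.94 ± 0.34), down.

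Of 11 genes of the MYC network 4 rose and 1 fell (median -0.04). Max, the obligate partner of MYC, rose by 3.37 ± 0.28, and Mxd4, which competes for it, fell by 1.52 ± 0.47. All 11 MYC targets of the list rose (median 4.63), with Odc1, the first enzyme of polyamine synthesis (6.25 ± 0.26), and Ncl, nucleolin (4.44 ± 0.18). Of 10 genes tied to EGR and NR4A factors 5 rose and none fell (median 1.36), with the inhibitory receptor Pdcd1 (4.94 ± 0.60) and the costimulatory receptor Tnfrsf9 (1.87 ± 0.32). Of 6 tested genes tied to BATF and IRF4 none rose and 1 fell, Maf (-0.80 ± 0.32). Of 10 factors of resting T cells 3 rose and 2 fell (median 0.45), Klf2 by -2.96 ± 0.38 and Klf3 by -1.47 ± 0.29, while Foxp1 (2.18 ± 0.25) and Ikzf1 (2.16 ± 0.30) rose. The counts for relatives of EGR and NR4A, for genes tied to BATF and IRF4 and for factors of resting T cells thus lie near those shares of all genes, in lists of 4 to 10 genes.

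KO cells of the Acly cohort were counted in the same lists, with 20.7% of all genes called higher and 26.7% lower. There 5 of 11 AP-1 and BATF relatives, 4 of 7 interferon regulatory factors, 4 of 11 genes of the MYC network, 14 of 17 feedback genes, 11 of 11 MYC targets and 2 of 6 genes tied to BATF and IRF4 rose, and none of these lists held a fall. Among NFAT and NF-kB genes 9 of 13 rose and 2 fell, and among relatives of EGR and NR4A 1 of 4 rose and 1 fell. Genes tied to EGR and NR4A rose in 5 of 10 cases and fell in 1, and factors of resting T cells rose in 3 of 10 and fell in 2. Of all genes in the Pdha1 cohort without the 2 libraries, 14.9% were called higher in WT and 7% in KO cells. Of 11 MYC targets 11 (WT) and 10 (KO) rose, and of 13 NFAT and NF-kB genes 7 in each. Feedback genes gave 11 and 7 of 17, AP-1 and BATF relatives 5 and 3 of 10. Interferon regulatory factors gave 2 and 1 of 7. Relatives of EGR and NR4A gave 1 and 0 of 4, and genes tied to them 3 and 1 of 10. The MYC network gave 2 of 11 in each, with 2 falls in WT. Genes tied to BATF and IRF4 gave 2 and 1 of 6, and factors of resting T cells 4 of 10 in each. Both lists had 1 fall in WT. No gene of these lists was called in a comparison of genotypes or an interaction of either cohort.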

How the data were processed

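The 24 libraries of mouse CD4 T cells were made, per the labels' protocols, from total RNA depleted of ribosomal and globin transcripts (stranded kit, single reads of 75 bp). The authors deposited 1 table of RPM, reads scaled to 1000000 per library, with 46981 mouse gene identifiers. Builds are named as GRCm38 and mm10 in the submitters' processing notes. Which aligner, counter and annotation served is not given in the sources used here. All deposited values above 0 came out as whole counts (100% of them, within 0.01 count) once a correction for collisions among 4096 tags was inverted. No molecular identifiers are named in the labels, so this reading was not tested.

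Symbols and positions came from GENCODE on GRCm38 (46206 identifiers matched, 775 did not). limma 3.58.1 (R 4.3.3; trend and robust) was fitted on log2(RPM + 0.5) to genes that reached 1 RPM in 3 or more libraries, per cohort and for both cohorts together. Benjamini-Hochberg adjustment ran over all genes tested, with a threshold of 0.05. The pseudocount understates folds of low genes. All 10 members passed the filter in each fit, Batf3 on low values. ± is the SE of a log2 change or, where said, an SD. The fits were also run on simulated data. These held no libraries that stand apart and no raised genes at very low counts, so those cases were not covered. Alternatives were pseudocounts of 0.1 and 1, other filters, TMM-style scaling, a replicate block, fits of only the groups compared, limma without trend, leaving out libraries, and, added after seeing the data, DESeq2 1.42.0 and edgeR 4.0.16, run on those counts. Nothing in the labels ties replicates to separate animals. P-values thus cover only the spread among these libraries, which may be technical.

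The members and lists were chosen with earlier results of these data known. Named genes were the 10 members, Acly and Pdha1, up to 2 list genes with the smallest p in each direction in WT cells of the Acly cohort, list genes called in a comparison of genotypes, and the 2 genes most correlated with each member.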

Additional observations from a re-analysis of the deposited data

How the results depend on the processing

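In both activation comparisons of the Acly cohort 9 members were called under every alternative run. In the Acly cohort, leaving out a library gave 0 to 1 members called between resting genotypes. Activated against resting WT cells of the Pdha1 cohort gave 0 members called by limma with all libraries. It gave 0 to 7 when a library was left out (7 without WT activated 3). Without both libraries that stood apart, 9 were called by limma and 9 by edgeR. With all libraries DESeq2 called 9 and edgeR 0. In KO cells the count was 0 with all libraries and 9 without both, by limma and by edgeR. It was also 0 by limma when KO resting 3 alone was left out. Between activated genotypes of that cohort edgeR without both called 1 member, Irf8. Its change with all libraries was 0.58 by limma and -0.8 by edgeR. Without both it was -1.29 by limma and -1.37 by edgeR. The value thus changed with the libraries that entered and with the method. The cause of the difference between edgeR and limma was not tested. Among uncalled changes, signs turned in 41 of 239 values between activated genotypes of the Pdha1 cohort. For the difference of that effect between cohorts they turned in 46 of 349. Such values were counted as unchanged because neither side was called, although their direction was not kept. The adjusted p of Irf4 between resting Acly genotypes ran from 0.0464 to 1.

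Counts over all genes called moved by over 1.5 times in several comparisons. DESeq2 called 9881 genes between activated and resting Acly KO cells, where limma called 14846. Between activated Acly genotypes 2 genes were called, 39 in a fit of only those groups, 16 by edgeR and 0 without trend. Between resting ones 0 were called, 86 without trend, 17 with no filter, 16 without WT resting 1 and 119 without WT resting 3. Activated against resting Pdha1 cells gave 0 in WT and KO, and 7825 and 2075 without both libraries. In WT 4338 were called without WT activated 3 and 1922 by DESeq2.

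Same-numbered libraries correlated by over 0.1 in 1 of 18 pairs of the Acly cohort and 4 of 18 of the Pdha1 cohort, so the numbers were not taken as pairs. With the replicate block 9 members were called in each activation comparison of the Acly cohort and 0 in every other comparison, as without it. Between resting Acly genotypes it called 2 genes, where 0 were called without it. Values of 1 to 3 counts limit every statement on resting cells, and 2 WT libraries remain in activated Pdha1 cells without WT activated 3.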
